A study of Mus musculus with 6 samples.

Results

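The comparison described here set 2 RNA-seq libraries of Cry/Per_KO cells against 2 libraries of Cry/Per/Nr1d_KO cells, chosen as 4 of the 6 libraries of the series by the names under which their counts were deposited. Both are immortalized lines of mouse embryonic fibroblasts of strain C57BL/6. Cry/Per_KO cells lack Cry1, Cry2, Per1 and Per2, and Cry/Per/Nr1d_KO cells lack these genes and also Nr1d1 and Nr1d2. All 4 libraries thus come from cells without CRY1, CRY2, PER1 and PER2 proteins, called CRY and PER in this comparison. Per3 is not among the mutated genes and was transcribed in all 4 libraries (below). The comparison asks how the transcriptome differs with the presence of the NR1D proteins when CRY and PER are absent. The Cry/Per/Nr1d_KO line is 1 clone that was isolated after lentiviral CRISPR targeting of Nr1d1 and Nr1d2 in the Cry/Per_KO line. A difference that came with the cloning and a difference that came with the loss of NR1D proteins therefore cannot be told apart. Cells were grown in high-glucose DMEM with 10% FBS. The 2 libraries of a line are separate RNA preparations of that line, and p-values measure only the spread between such preparations.

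The name of a library and its genotype label disagree in this comparison. The libraries deposited under the name of Cry/Per_KO carry the genotype label with all 6 genes mutated, and those deposited under the name of Cry/Per/Nr1d_KO carry the label with 4 genes mutated. The sample titles go with the genotype labels for the second pair, and for the first pair they read CMEF cells, PN_KO, in which the letters of CPN_KO are split. The pairs are called the CP-named and the CPN-named libraries here, after the deposited names, and every direction is that of the CPN-named relative to the CP-named libraries. By the names, a gene higher in the CPN-named libraries is higher in cells without NR1D proteins. By the genotype labels, the same gene is lower in cells without NR1D proteins. The values of the libraries and the sizes of the differences are the same by both readings.

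NR1D1 and NR1D2 (REV-ERB alpha and beta) are nuclear receptors that bind RORE elements in DNA and recruit the NCoR-HDAC3 corepressor complex. They compete there with the ROR receptors, which activate transcription, and Arntl (which encodes BMAL1), Cry1, Npas2 and Nfil3 are known targets. Cry and Per genes, Nr1d1, Dbp and Ciart are in turn activated through E-box elements by the CLOCK-BMAL1 heterodimer, which CRY and PER proteins inhibit in normal cells.

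The promoter sequences that carry these elements are shown first, because NR1D proteins act through the RORE and CLOCK-BMAL1 through the E-box. They are RefSeq promoter windows of GRCm38.p6, the assembly of mm10, from 250 bases before to 50 bases after a start site, and capitals mark the motif. The RORE of Arntl is on the plus strand at chr7:113207537-113207547, 27 bases into the transcript, in the 5′ UTR of exon 1 of Arntl-201 and Arntl-203. The stretches of Cry1, Per1 and Ciart lie before the start site and hold the E-box CACGTG. Cry1 and Ciart are read on the minus strand and Per1 on the plus strand.
Arntl, chr7:113207527-113207556: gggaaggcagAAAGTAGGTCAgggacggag
Cry1, chr10:85185082-85185141: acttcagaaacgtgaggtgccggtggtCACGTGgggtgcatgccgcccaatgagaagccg
Per1, chr11:69098756-69098815: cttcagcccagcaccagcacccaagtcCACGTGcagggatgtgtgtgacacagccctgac
Ciart, chr3:95882261-95882350: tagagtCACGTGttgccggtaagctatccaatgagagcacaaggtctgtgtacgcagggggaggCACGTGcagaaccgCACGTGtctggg

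On both strands, the RORE was found in 0.384% of all 32851 promoter windows, its core AGGTCA in 16.3%, CACGTG in 7.15% and the D-box TTACGTAA in 0.119%. The RORE contains AGGTCA, so the Arntl window holds both. Of the clock and NR1D target genes looked up, 24 of 34 had a window, and Arntl was the only one of these with a RORE in it. Among all genes tested that had a window, a RORE was found for 1 of 719 genes called higher in the CPN-named libraries (0.139%), for 3 of 794 called lower (0.378%) and for 15 of 7839 not called (0.191%). CACGTG was found for 9.32% of the genes called higher, 14.6% of those called lower and 12.1% of those not called. A match describes the letters of a window only, and elements outside these 300 bases were not searched.

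The libraries held 56427876 to 74687837 counts in the 4 compared libraries, and the 20 most abundant genes made up 6.55% to 8.18% of each. The correlation of log2 CPM values between the libraries of a pair, across 11934 genes, was 0.998 for both pairs. Only 0.218% of the genes differed between the 2 CP-named libraries, and 0.419% between the 2 CPN-named libraries, by more than the limit on the fold used below. Values are given as normalized counts, which are counts scaled by edgeR's TMM method to a common library size.

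The fibroblast identity was checked by 14 markers, of which 11 were abundant enough to be tested. Fn1, Vim, Col1a1 and Col1a2 each had at least 126050 normalized counts in every library of both pairs, and Pdgfra, Pdgfrb, Prrx1, Twist1 and Ddr2 were present in all of them. Thy1, a surface antigen of many fibroblasts, had at most 6.21 and Lum, a matrix proteoglycan, at most 9.77 normalized counts. Thy1, Lum and Dcn were not abundant enough to be tested. The 14 markers summed to between 1011000 and 1058000 normalized counts in the CP-named and between 946000 and 964700 in the CPN-named libraries. Col3a1 (log2 fold change -1.49) and S100a4 (-1.14) were called lower in the test described below (18.2%, against 8.95% of all genes tested) and the other 9 were not called. With a mean of at least 10 as the limit on level, 3 of 12 markers were called lower and none higher. At that limit, 1758 of all 14770 genes were called lower and 1553 higher. Without the second CP-named library, Twist1 was called higher (0.83) and Col1a1 lower (-0.81). S100a4 lost its call with the median of chromosome 3 subtracted (-0.49). Of the exon bases of S100a4, 51.7% also belong to Gm42674 on the same strand.

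Markers of other cell types were low and also differed between the pairs. The 9 epithelial markers summed to between 178.5 and 218.8 normalized counts in the CP-named and between 29.46 and 42.29 in the CPN-named libraries, with Krt8 at 0 in all 4. The 7 endothelial markers summed to between 214.3 and 225.5 and between 83.47 and 85.43, and the 8 skeletal muscle markers to between 263.2 and 309.9 and between 47.86 and 50.08, with Tie1 and Myog at 0 in all 4. The 8 blood cell markers, with Cd3e and Adgre1 at 0, summed to between 208.8 and 212.2 in the CP-named and between 274 and 288.3 in the CPN-named libraries. Genes also used as neural or cartilage and bone markers were more abundant, with Nes and Spp1 as the most abundant members, and these lists summed to lower values in the CPN-named libraries (11970 to 12100 against 17550 to 17800, and 21410 to 22090 against 42910 to 43530). Nes lies on chromosome 3. With the median of that chromosome subtracted, its log2 fold change went from -0.89 to -0.25 and its call was lost. The part of these markers of other cell types in the results below was not tested. In bulk RNA, fewer cells that express a gene and less RNA per cell cannot be told apart.

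The 2 genes targeted to make the Cry/Per/Nr1d_KO line were transcribed in every library. Nr1d1 (Entrez Gene 217166, minus strand of chromosome 11, 98767932 to 98775377) had 3158 and 3146 in the CP-named and 9337 and 9249 in the CPN-named libraries. The CPN-named libraries were thus both higher, by 1.56 ± 0.053 on the log2 scale (SE, adjusted p = 1.92e-12). Exons of Thra on the other strand cover 8.55% of the exon bases of Nr1d1. Nr1d2 (Entrez Gene 353187, minus strand of chromosome 14, from 18204056 to 18239106) had 4881 and 5506 in the CP-named and 8262 and 8008 in the CPN-named libraries, a log2 fold change of 0.65 (adjusted p = 4.67e-08) that lay inside the limit on the fold. The regions that the study amplified to read the edits lie in coding sequence of exon 2 of both genes, at chr11:98771732-98772331 and chr14:18221868-18222235. Small insertions and deletions there leave a transcript that is still counted, so these counts check neither reading of the labels.

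Of 11934 genes tested, 2006 (16.8%) were called. A call required an adjusted p (Benjamini-Hochberg, from the quasi-likelihood test of edgeR) under 0.05 and a log2 fold change beyond 0.807 in either direction. The CPN-named libraries were higher for 938 of them (7.86% of the genes tested) and lower for 1068 (8.95%). By the genotype labels, 1068 genes were higher and 938 lower in cells without NR1D proteins. The median log2 fold change of all genes was -0.0033, with a median absolute value of 0.34. The 2 directions were close in number and unequal in size. A fitted change above 4-fold was found for 104 of the genes called higher and 328 of those called lower, and one above 16-fold for 9 and 136, sizes that depend on the prior count for genes at 0 in a pair. With the genes divided by mean level into 3 classes of 3978, 81 of the highest class were called higher and 212 lower, whereas in the lowest class 647 were called higher and 602 lower.

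**Figure D1:**
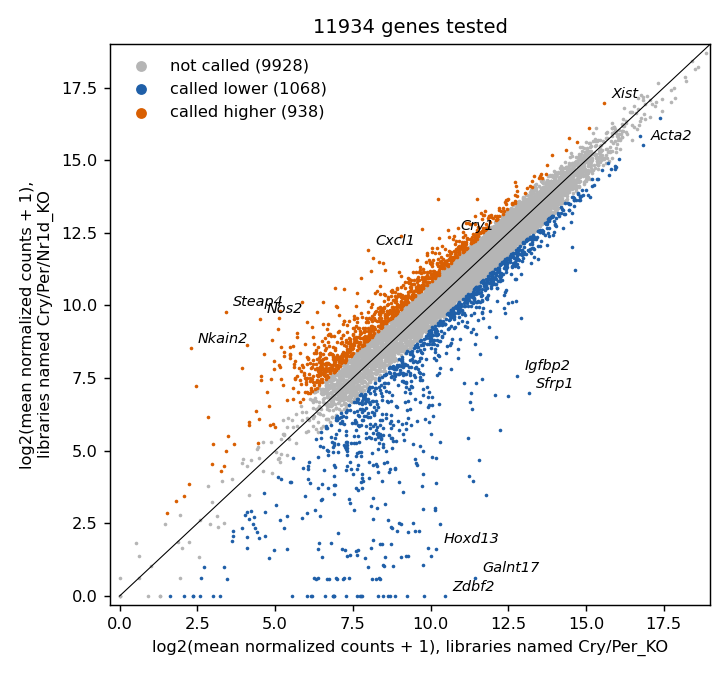
Mean normalized counts of the 11934 genes tested, as log2 of the mean plus 1, in the 2 CP-named libraries (horizontal axis) and the 2 CPN-named libraries (vertical axis). Each point is a gene; 938 orange genes were called higher and 1068 blue genes lower in the CPN-named libraries, and a row of blue genes lies at or near 0 on the vertical axis with no counterpart on the horizontal axis.

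Genes known as targets of NR1D repression were higher in the CPN-named libraries in 5 of 10 cases and lower in none, against 7.86% and 8.95% of all genes tested. Their median log2 fold change was 0.77, and in 9 of the 10 both CPN-named libraries lay above both CP-named libraries, as they did for 43.0% of all genes tested. Arntl, the gene of BMAL1, had 1192 and 1171 normalized counts in the CP-named and 2176 and 2208 in the CPN-named libraries. Its levels in the pairs were well apart, with a difference of 0.89 ± 0.058 on the log2 scale (SE, adjusted p = 2.42e-09). Cry1 (Entrez Gene 12952, chromosome 10, 85131700 to 85185054) had 1698 and 1724 in the CP-named and 5323 and 5478 in the CPN-named libraries, a 3.16-fold difference. Its transcripts come from mutated alleles in both lines, so these counts do not stand for CRY1 protein.

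The other called members of this list were Nr1d1 itself, the chemokine gene Ccl2 and the cytokine gene Il6. Ccl2 had 3488 and 3432 normalized counts in the CP-named and 9461 and 9844 in the CPN-named libraries (log2 fold change 1.48 ± 0.047, adjusted p = 1.03e-12). Il6 was scarce and passed the limit on mean level through the Per/Nr1d_KO libraries, with 36.4 and 23.3 against 59.0 and 59.9, and its log2 fold change of 0.96 fell to 0.71, inside the limit, without the second CP-named library. Npas2, the paralog of Clock, had 49.7 and 41.1 against 64.6 and 67.8 (log2 fold change 0.53), and Nfil3, a repressor that binds D-boxes, had 2245 and 2164 against 3183 and 3401 (0.58). Neither of these passed the limit on the fold. Clock differed by 0.04 on the log2 scale. Lpl, lipoprotein lipase, was too scarce to be tested, at 41.7 and 36.7 against 0 and 0, opposite in direction to the tested members of the list. With a mean of at least 10 as the limit on level, 5 of 12 members were called higher and 2 lower. Of all 14770 genes tested at that limit, 1553 were called higher and 1758 lower.

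**Figure D2:**
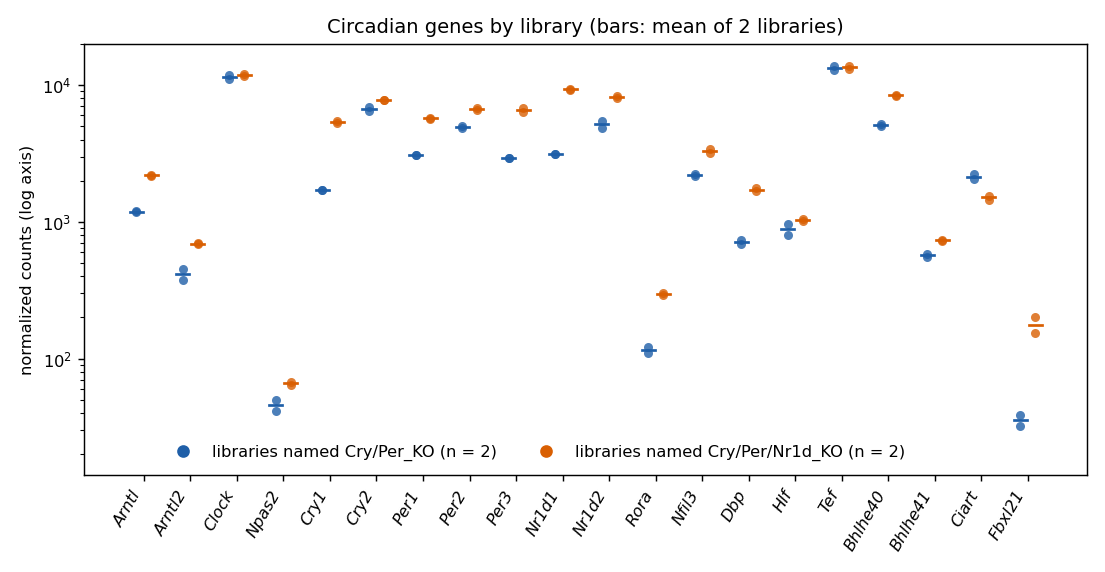
Normalized counts (log axis) of 20 circadian genes in the 2 CP-named (blue) and 2 CPN-named (orange) libraries, with the mean as a bar. Cry1, Nr1d1, Per3, Dbp, Rora and Fbxl21 show the widest gaps, Clock and Tef overlap, and Ciart is the one drawn gene with a clear gap in the other direction, which turned to a log2 fold change of 0.13 with the median of chromosome 3 subtracted.

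Among 28 core clock genes tested, 8 were called higher (28.6%, against 7.86% of all genes) and none lower, with a median log2 fold change of 0.42. The 8 include Fbxl21, which passed the limit on mean level only through the CPN-named libraries. In the E-box output arm, Dbp, a PAR bZIP transcription factor, had 692 and 731 normalized counts in the CP-named and 1675 and 1760 in the CPN-named libraries, and Sphk2 on the other strand covers 18.0% of its exon bases. Its paralogs Tef and Hlf differed by 0.02 and 0.23 on the log2 scale. Per1 had 3066 and 3062 against 5644 and 5793, and Per3 had 2930 and 2950 against 6395 and 6810, with log2 fold changes of 0.90 and 1.17. Per2 differed less (0.45). The E-box repressor genes Bhlhe40 (0.73) and Bhlhe41 (0.37) were not called. Arntl2, the paralog of Arntl, had a log2 fold change of 0.74, which passed the limit (0.88) without the second CP-named library.

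Ciart, which encodes the repressor CHRONO and carries 3 E-boxes in the stretch printed above, was lower in the CPN-named libraries as deposited but not relative to its chromosome. It had 2229 and 2062 normalized counts in the CP-named and 1456 and 1557 in the CPN-named libraries, and its log2 fold change of -0.51 (adjusted p = 4.77e-06) was inside the limit on the fold. Ciart lies on the distal part of chromosome 3, whose genes were lower as a whole (below), and with the median of that chromosome subtracted its log2 fold change turned to 0.13. Usp2, a clock-controlled ubiquitin protease gene, had 424 and 462 against 247 and 316, with a log2 fold change of -0.64. It passed the limit with the median of its chromosome subtracted (-1.02) and without the second CPN-named library (-0.84).

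The receptor that activates through the RORE was also higher in the CPN-named libraries. Rora had 110 and 121 normalized counts in the CP-named and 290 and 303 in the CPN-named libraries, a difference of 1.37 ± 0.122 on the log2 scale (SE, adjusted p = 8.7e-08). Rorb, at 104 and 108 against 76.8 and 73.6, was below the limit on mean level and was not tested. Fbxl21, a ubiquitin ligase gene that acts on CRY proteins, had 32 and 38.9 against 154 and 200, the largest log2 fold change of the list (2.34). It passed the limit on mean level only through the CPN-named libraries, so this rank is a description. None of the 6 corepressor genes was called, against 16.8% of all genes, a share too small to read from 6 genes. Ncor1 (log2 fold change -0.01), Tbl1x (-0.01) and Tbl1xr1 (0.14) differed by less than Hdac3 (0.41) and Gps2 (-0.46).

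Inflammatory genes included the largest fitted rise of all genes, that of Steap4. Of 17 tested, 9 were called higher (52.9%, against 7.86% of all genes) and none lower, with a median log2 fold change of 0.96. Steap4, a metalloreductase gene induced in inflammation, had 7.10 and 12.2 normalized counts in the CP-named and 909 and 853 in the CPN-named libraries, a 92.7-fold difference. Nos2, the inducible nitric oxide synthase, had 17.8 and 25.5 against 768 and 720. Saa3, an acute-phase protein, had 13.3 and 18.9 against 394 and 408. Lcn2, which binds siderophores, had 41.7 and 24.4 against 595 and 574. These 4 genes were at 41.7 normalized counts or fewer in both CP-named libraries and at 394 or more in both CPN-named libraries. They passed the limit on mean level only through libraries other than the CP-named, so the count of rises is in part set by that limit.

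More abundant members of the same list rose by less. C3, a complement component, had 1513 and 1490 normalized counts in the CP-named and 6148 and 6120 in the CPN-named libraries. Nfkbia, the inhibitor of NF-kB, had 3820 and 3639 against 8570 and 8837. Tnfaip3, which restrains NF-kB signalling, had 886 and 957 against 2789 and 2932, and the cytokine gene Lif had 542 and 508 against 1651 and 1542. The genes of the NF-kB subunits were not called, with -0.74 for Nfkb1, -0.01 for Nfkb2 and -0.33 for Relb, and Ptgs2 (-0.74) and Csf1 (-0.77) were also inside the limit. Nfkb1 and Csf1 lie on chromosome 3. The list thus did not move as a whole.

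Of 12 chemokine ligand genes tested, 6 were called higher (50%, against 7.86% of all genes) and 1 lower (8.33%, against 8.95%). Cxcl1, a neutrophil attractant, had 232 and 272 normalized counts in the CP-named and 3761 and 3942 in the CPN-named libraries (log2 fold change 3.94 ± 0.069, adjusted p = 1.61e-15). Ccl20 had 3.55 and 5.55 against 156 and 145, and Cxcl5 had 18.6 and 26.7 against 189 and 153. These 2 genes and Ccl9 passed the limit on mean level only with the Per/Nr1d_KO libraries included. Ccl9 was the one called lower, at 95 and 80 against 51.2 and 48.1, and this call was lost without the first CP-named (-0.69) or the second CPN-named library (-0.78). Il6st, the shared signalling receptor gp130 of the IL-6 family, was among the 6 rises with the largest difference in counts, from a mean of 35034 to 70248, and its call was lost with the median of chromosome 13 subtracted (0.65).

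Interferon-stimulated and antigen presentation genes were called in both directions, 5 of 29 higher (17.2%, against 7.86% of all genes) and 7 lower (24.1%, against 8.95%). Without the second CP-named library 8 were called higher and 6 lower, and with the median of each chromosome subtracted 6 and 5. Mx2 (log2 fold change 2.35), Tap2 (1.83), Gbp2 (1.47) and Irf7 (1.10) were higher, and Isg15 (-1.03) and H2-K1 (-0.86) lower. Rsad2, Oas1a and Oas2, the largest falls of this list, had under 35 normalized counts in each of the 4 libraries. These 3 and the rise of Mx2 passed the limit on mean level only through the Per/Nr1d_KO libraries, where Mx2 had a mean of 2033, Rsad2 had a mean of 619, Oas1a of 4277 and Oas2 of 699. Of the 50-base stretches of Oas1a transcripts, 57.6% also occur in transcripts of another gene, most of them in Oas1g, and 18.5% of the exon bases of Tap2 lie in exons of Gm15821 on the other strand.

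Genes of glycolysis and the hypoxia response were higher in the CPN-named libraries. Of 26 tested, 10 were called higher (38.5%, against 7.86% of all genes) and none lower, and the median log2 fold change was 0.48. In 23 of them both CPN-named libraries lay above both CP-named libraries, as they did for 43.0% of all genes tested. Egln3, an oxygen-sensing prolyl hydroxylase, had 327 and 321 normalized counts in the CP-named and 2798 and 2915 in the CPN-named libraries. Pdk1, which restrains entry of pyruvate into the mitochondrion, had 2896 and 2933 against 13023 and 12971. Bnip3, a mitophagy receptor, had 1025 and 1104 against 4109 and 3934, and Gm45507 on the other strand covers 22.3% of its exon bases. In these 3 hypoxia-inducible genes the gap between the pairs was far larger than that between the libraries of a pair.

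The enzymes of glycolysis itself had smaller log2 fold changes. Pgk1 (log2 fold change 1.09), Pfkl (1.08) and Tpi1 (0.91) were called, whereas Aldoa (0.69), Eno1 (0.47), Pkm (0.46) and Ldha (0.45) stayed inside the limit. P4ha1, a collagen prolyl hydroxylase, had 15411 and 15438 normalized counts in the CP-named and 37155 and 37806 in the CPN-named libraries. Lox, which cross-links collagen and is also oxygen-regulated, had 22167 and 23039 against 53680 and 56401. Vegfa (-0.32) and Ndrg1 (-0.34), which respond to hypoxia in many cells, were not higher. The call of Tpi1 was lost with the median of chromosome 6 subtracted (0.57).

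Cholesterol synthesis genes were lower in the CPN-named libraries. Of 22 tested, 16 were called lower (72.7%, against 8.95% of all genes) and none higher, all 22 had negative log2 fold changes, and their median was -0.91. Only 2 of the 22 lie on chromosome 3, and with the median of each chromosome subtracted 15 were called lower, against 846 of all 11934 genes. Srebf2, the transcription factor of this pathway, had 23406 and 21877 normalized counts in the CP-named and 10760 and 12062 in the CPN-named libraries. Sqle, squalene epoxidase, had 16218 and 15480 against 5347 and 5570 (log2 fold change -1.54 ± 0.045, adjusted p = 4.37e-13). Cyp51 had 14116 and 14767 against 5242 and 5444, and Dhcr7, which makes the last step to cholesterol, had 2265 and 2140 against 618 and 640.

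Fdps, farnesyl diphosphate synthase, on the distal part of chromosome 3, fell from 2986 and 2882 to 759 and 678 (-2.03), and 26.7% of its exon bases also belong to Gm43738 on the same strand. Insig1 (-0.88) and Hmgcs1 (-0.89) passed the limit on the fold closely. Of 22 lipid and adipocyte genes, 4 were called lower (18.2%, against 8.95% of all genes) and 2 higher (9.09%, against 7.86%). The 4 called lower act in fatty acid synthesis, elongation and desaturation. Scd2 had 63939 and 64975 against 27528 and 28324, Scd1 had a log2 fold change of -1.02, and Elovl6 (-1.40) and Acaca (-0.88) were also lower. The call of Elovl6, on chromosome 3, was lost with the median of that chromosome subtracted (-0.76). Acadl (0.93), an enzyme of fatty acid oxidation, and Cebpd (1.04) were called higher, while Pparg was at 0 to 1.11 normalized counts in these 4 libraries.

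**Figure D3:**
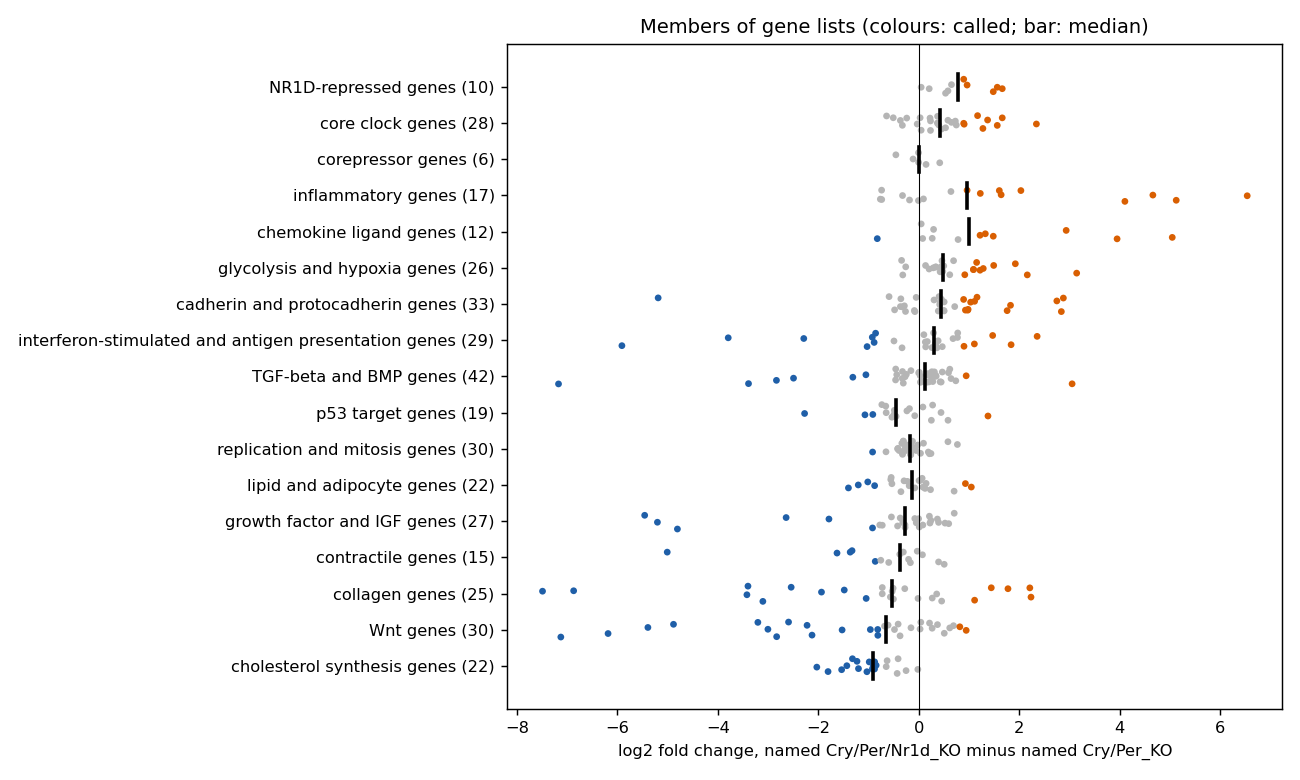
Log2 fold changes (CPN-named minus CP-named) of the tested members of 17 gene lists, with their number in brackets. Orange members were called higher, blue lower and grey not called, and a black bar marks the median, which runs from 0.998 for chemokine ligand genes to -0.91 for cholesterol synthesis genes.

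Few genes of replication and mitosis, immortalization, cytosolic ribosomes and oxidative phosphorylation were called. Of 30 replication and mitosis genes, 1 was called lower (3.33%, against 8.95% of all genes) and none higher (against 7.86%). Their median log2 fold change was -0.18, and 23 were below 0. The gene called lower was Cenpe, on chromosome 3, and Mki67, a marker of proliferating cells, had 64041 and 72438 against 63387 and 58249. None of 16 immortalization genes was called, against 16.8% of all genes, with Cdkn2a at a log2 fold change of 0.07 and Trp53 at -0.51. The 19 p53 target genes had a median log2 fold change of -0.45, and 13 were below 0. Of these, 3 were called lower (15.8%, against 8.95% of all genes) and 1 higher (5.26%, against 7.86%). Perp (-2.27), Aen (-1.07) and Bbc3 (-0.92) were called lower and Fas (1.37) higher, while Cdkn1a (0.25) and Mdm2 (-0.19) were not called. Perp passed the limit on mean level only with the Per/Nr1d_KO libraries included (mean 2455), so the count of falls is in part set by that limit. Bbc3 lost its call without the first CPN-named library (-0.79), and both Bbc3 (-0.65) and Aen (-0.81) did with the median of chromosome 7 subtracted. Of 61 cytosolic ribosomal protein genes, 3 were lower and 1 higher, with a median log2 fold change of -0.287 and 48 of them below 0. Without the second CP-named library 5 were lower and none higher, without the first CPN-named library 5 were lower, and with chromosome medians subtracted 1 was lower. Of 69 nuclear-encoded genes of oxidative phosphorylation, 3 were lower and none higher, with a median of -0.123 and 41 below 0. The shares of both lists were under the 8.95% and 7.86% of all genes. The lists were not matched for mean level, and in the highest class of level 212 of 3978 genes were called lower and 81 higher.

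Wnt pathway genes were lower in 14 of 30 cases (46.7%, against 8.95% of all genes) and higher in 2 (6.67%, against 7.86%). Their median log2 fold change was -0.65. With the median of each chromosome subtracted, 12 were called lower, against 846 of all 11934 genes. Nkd1 and Rspo1, near 0 in the CPN-named libraries, passed the limit on mean level through the other libraries, so the count is in part set by that limit. Nkd1, an intracellular inhibitor, had 235 and 237 normalized counts in the CP-named and 0 and 2.95 in the CPN-named libraries. The secreted antagonist Sfrp1 had 8919 and 9341 against 131 and 120, a 72.8-fold difference. Dkk3 had 4451 and 4332 against 476 and 476. The agonist Rspo1 had 310 and 314 against 5.56 and 8.84. The transcriptional effector Lef1 had 747 and 875 against 155 and 190, and the feedback gene Axin2, induced by Wnt signalling, had 172 and 184 against 64.6 and 58.9. The members called lower thus included inhibitors, an agonist and targets of the pathway, while 10 of the 30 had positive log2 fold changes and the coreceptor genes Lrp5 (0.61) and Lrp6 (0.21) were not called. Notum (0.94) and Wnt9a (0.81) were called higher, the latter at the limit, with 0.81 and 0.62 when the first CP-named and the second CPN-named library, respectively, were left out and the call was lost.

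Several genes of growth factor signalling were much lower in the CPN-named libraries. Igfbp2, which binds insulin-like growth factors, had 7385 and 6713 normalized counts in the CP-named and 176 and 205 in the CPN-named libraries. Igfbp3 had 1140 and 1164 against 27.8 and 24.6, and the receptor gene Egfr had 713 and 724 against 23.4 and 27.5. Igf1 fell by 2.64 on the log2 scale. Of 27 such genes 6 were called lower (22.2%, against 8.95% of all genes) and none higher. With a mean of at least 10 as the limit 11 of 33 were lower, against 1758 of all 14770 genes. Igfbp3 and Egfr passed the limit on mean level only through libraries other than the CPN-named, so the count is in part set by that limit. Pdgfra (-0.37), Pdgfrb (0.01), Igf1r (-0.01) and Fgfr1 (-0.27) were not called. In the TGF-beta and BMP list, 6 of 42 were lower (14.3%) and 2 higher (4.76%), shares nearer those of all genes. Bmp3 had 671 and 721 against 5.56 and 3.93, and Nog, an antagonist of BMP ligands, had 40.8 and 53.3 against 386 and 385. Bmp3 passed the limit on mean level only through the CP-named libraries, and Nog only through the CPN-named libraries.

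Contractile genes of myofibroblasts were lower in 5 of 15 cases (33.3%, against 8.95% of all genes) and higher in none. The count includes Actg2, which passed the limit on mean level only through the CP-named libraries. With a mean of at least 10 as the limit, 6 of 17 were called lower and 1 higher. At that limit, 1758 of all 14770 genes were called lower and 1553 higher. Acta2, smooth muscle actin, had 119470 and 116052 normalized counts in the CP-named and 46063 and 47586 in the CPN-named libraries, 1 of the 6 largest falls in counts. Myl9 had 24576 and 23293 against 9205 and 9351, and Actg2 had 746 and 740 against 23.4 and 22.6. Ccn2, a matricellular protein induced by TGF-beta and YAP, had 23359 and 23224 against 7389 and 7664, and Gm15270 on the other strand covers 23.2% of its exon bases. Tagln (-0.76), Tpm1 (-0.38) and Cald1 (0.07) were not called. The matrix genes Thbs1 and Sparc were among the largest falls in counts too, from means of 62059 to 26404 and of 68381 to 33329.

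Collagens moved both ways, with 5 of 25 called higher (20%, against 7.86% of all genes) and 9 lower (36%, against 8.95%). With a mean of at least 10 as the limit, 6 of 37 were called higher and 17 lower. Of all 14770 genes tested at that limit, 1553 were called higher and 1758 lower. Col2a1, the collagen of cartilage, had 2859 and 2427 normalized counts in the CP-named and 12.2 and 16.7 in the CPN-named libraries, and Col8a2 had 896 and 840 against 2.23 and 11.8. Col20a1 (2.23), Col17a1 (2.21) and Col11a2 (1.77) were higher at low levels, and Col20a1 and Col17a1 passed the limit on mean level only through the CPN-named libraries. Col6a4 (-3.42), among the falls, passed it only through the CP-named libraries, so the counts of rises and of falls are a description. The main fibrillar genes Col1a1 (-0.73) and Col1a2 (0.35) were not called, and Col1a1 reached the limit (-0.81) without the second CP-named library. Among 24 laminin and integrin genes, 8 were lower (33.3%, against 8.95% of all genes) and 2 higher (8.33%, against 7.86%). Itga11, a collagen receptor subunit, had 1147 and 1138 against 17.8 and 9.82, and Lama2 had 2324 and 2393 against 34.5 and 50.1. Both passed the limit on mean level only through libraries other than the CPN-named, so the count is in part set by that limit. Of 49 guidance genes 15 were lower (30.6%, against 8.95% of all genes) and 9 higher (18.4%, against 7.86%). The lower ones include Slit3, which passed the limit on mean level only through libraries other than the CPN-named. Slit3 had 3003 and 3080 against 27.8 and 21.6, and Sema3c, among the rises, had 2350 and 2540 against 7239 and 6945.

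Cadherins and protocadherins were the adhesion list with most rises, 12 of 33 called higher (36.4%, against 7.86% of all genes) and 1 lower (3.03%, against 8.95%). With a mean of at least 10 as the limit, 18 of 55 were called higher and 8 lower. Of all 14770 genes tested at that limit, 1553 were called higher and 1758 lower. Genes such as Pcdhb15 passed the limit of 100 only through the CPN-named libraries, so the count is a description. Pcdhb15 had 38.2 and 50 normalized counts in the CP-named and 325 and 315 in the CPN-named libraries. Pcdhgb7 (log2 fold change 2.83) and Pcdhgb2 (2.75) belong to a cluster on chromosome 18 whose members share exons, and 52.1% of the 50-base stretches of Pcdhgb2 transcripts also occur in transcripts of other genes. With the median of each chromosome subtracted, 7 of the 33 were called higher, against 794 of all 11934 genes. The 1 gene called lower, Cdh10, had 7.10 and 1.11 against 0 and 0, passed the limit on mean level through the Per/Nr1d_KO libraries (mean 468) and was not called without the first CP-named library.

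A set of genes was at or near 0 in the CPN-named libraries. In 91 genes, each CPN-named library had at most 3 counts, the level that a count of 0 allows, while the CP-named libraries had a mean of at least 100 normalized counts. Of these, 39 had 0 counts in both CPN-named libraries, and 50 of the 91 passed the limit on mean level and were tested. A gene near 0 in the CPN-named libraries could pass that limit only through libraries in which it was high, so its levels are given here as a description. No gene met the same criterion in the other direction. In the third line of the series, Per/Nr1d_KO, 39 of the 91 genes also had at most 3 counts in each library, and 39 had a mean of at least 100. Zdbf2, an imprinted gene on chromosome 1, had 1377 and 1432 normalized counts in the CP-named libraries, at least 446-fold above the CPN-named libraries. Galnt17, a glycosyltransferase gene, had 2735 and 2738 against 1.11 and 0.

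The 91 genes included 11 Hox genes and 7 genes of the list of limb and developmental factors. Sim2 had 869 and 882 normalized counts in the CP-named libraries and was at least 278-fold lower in the CPN-named libraries, where it had 0 counts. The hindlimb factor Pitx1 (591 and 630) was at least 194-fold lower, Hand2 (391 and 445) at least 133-fold and the forelimb and heart factor Tbx5 (320 and 311) at least 100-fold. Hand2 shares 19.6% of its exon bases with Hand2os1 on the other strand. Of 44 limb and developmental factors tested, 11 were called lower and 2 higher (25% and 4.55%, beside 8.95% and 7.86% of all genes). With a mean of at least 10 as the limit 19 of 58 were called lower, beside 1758 of all 14770 genes. These counts depend on which genes pass the limit. Pax9 had 158 and 130 against 682 and 623, and Gata6 had a log2 fold change of 1.31. Prrx1 (0.73), Tbx3 (0.10) and Meis1 (0.56) were not called.

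Hox genes, which encode position along the body axis, differed by cluster. Of 39 Hox genes, 28 had at most 3 counts in both CPN-named libraries, against 2 in both CP-named libraries. The 10 Hoxb genes summed to 2000 and 2048 normalized counts in the CP-named and 7.79 and 9.82 in the CPN-named libraries. The 9 Hoxd genes summed to 1501 and 1654 against 6.68 and 3.92, with Hoxd13 at 1122 and 1198 against 2.23 and 1.96. The 9 Hoxc genes summed to 1173 and 1292 against 63.4 and 69.7, and Hoxc13 had 394 and 436 against 57.9 and 65.8. Apart from Hoxc13, these 3 clusters were thus at a few counts in the CPN-named libraries.

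The Hoxa cluster was divided. Hoxa9, Hoxa11 and Hoxa13 had 0 counts in both CPN-named libraries and Hoxa10 had 0 and 4.91, against 337 and 318 in the CP-named libraries. Hoxa11 had 218 and 214 in the CP-named libraries, at least 68-fold higher, and Hoxa11os on the other strand covers 35% of its exon bases. By contrast, all 5 genes from Hoxa2 to Hoxa6 were higher in both CPN-named libraries than in both CP-named libraries. Hoxa3 had 34.6 and 34.4 against 230 and 236, with 25.4% of its exon bases in exons of Hoxaas2 on the other strand. Hoxa5 lost its call with the median of chromosome 6 subtracted (0.47), and also without the first CP-named (0.61) or the first CPN-named library (0.70).

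**Figure D4:**
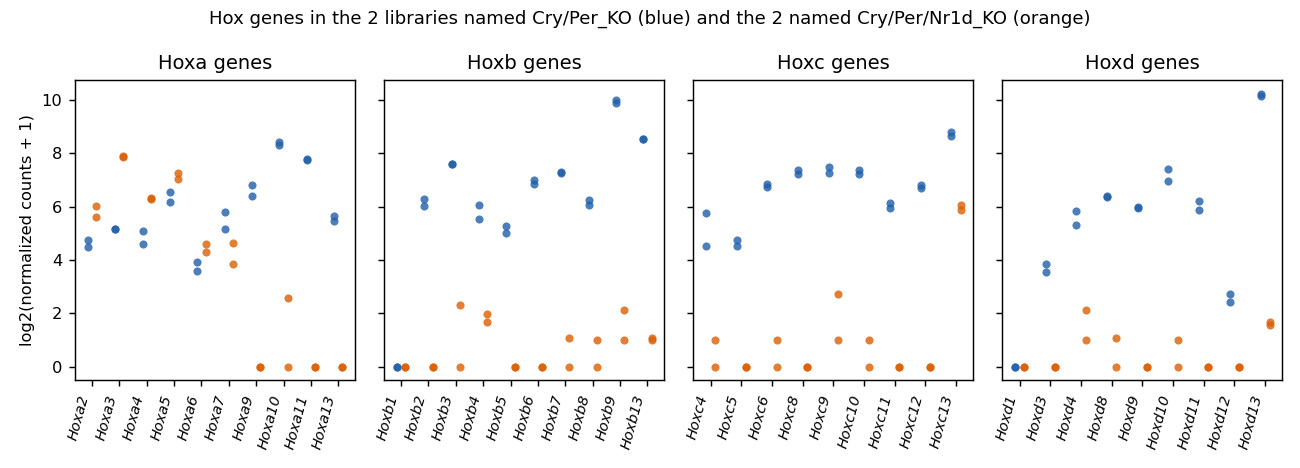
Normalized counts of 38 Hox genes as log2 of the count plus 1, in the 2 CP-named (blue) and 2 CPN-named (orange) libraries, by cluster and in order along it. Blue points lie above orange ones in the Hoxb, Hoxc and Hoxd panels apart from Hoxb1 and Hoxd1, which are at 0 in all 4 libraries, and Hoxa2 to Hoxa6 show the opposite order to Hoxa7 to Hoxa13.

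Of 13 imprinted genes that passed the limit on mean level, 7 were called lower (53.8%, against 8.95% of all genes) and 2 higher (15.4%, against 7.86%). Another 17 did not pass this limit. Zdbf2 (above), H19 and Igf2 passed the limit through the CP-named libraries, so these counts are a description. H19 had 728 and 727 normalized counts in the CP-named and 5.56 and 1.96 in the CPN-named libraries, and its neighbour Igf2 had 515 and 536 against 2.23 and 6.87. The reads of Igf2 may belong in part to Gm49394, which shares 62.8% of its exon bases on the same strand. Impact (1.08) and Sgce (0.93) were called higher and lost their calls with the medians of chromosomes 18 and 6 subtracted (0.80 and 0.58). Xist, the RNA that coats the inactive X chromosome, had 46076 and 52290 against 134902 and 119755, the largest rise in counts. The genes tested on the X chromosome had a median log2 fold change of 0.02, and Ddx3y, Eif2s3y, Kdm5d and Uty of the Y chromosome were at 0 in all 4 libraries.

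Whole chromosomes differed in their levels between the pairs. The 577 genes tested on chromosome 3 had a median log2 fold change of -0.65, 86.5% of them were below 0, and 207 (35.9%, against 8.95% of all genes) were called lower. The shift was larger in the distal part of the chromosome. The 165 genes of the first 80 Mb had a median of -0.28, and the 412 genes from 80 to 160 Mb had a median of -0.78, which is 1.71-fold lower in the CPN-named libraries. In each 10 Mb bin of this distal part the median lay between -0.68 and -0.89. Cenpe, Rpl34, S100a4, S100a6, Slc7a11, Gclm and Phgdh lie on chromosome 3, and their calls were lost with its median subtracted.

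Other chromosomes shifted by less. Chromosome 9 had a median of 0.38 and 108 of its 657 genes were called higher (16.4%, against 7.86%), and chromosomes 13, 12, 6 and 18 had medians of 0.35, 0.35, 0.34 and 0.28. Chromosomes 15, 7 and 2 had medians of -0.29, -0.27 and -0.19. On chromosome 15, the 147 genes of the first 70 Mb had a median of -0.07 and the 312 genes beyond it -0.37. Over the 4 possible pairs of a CPN-named and a CP-named library, the SD of a chromosome's median was at most 0.0347, so these shifts were larger than the spread between libraries. With the median of each chromosome subtracted, 1640 genes were called, 794 higher and 846 lower, and 1480 of them were among the 2006.

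**Figure D5:**
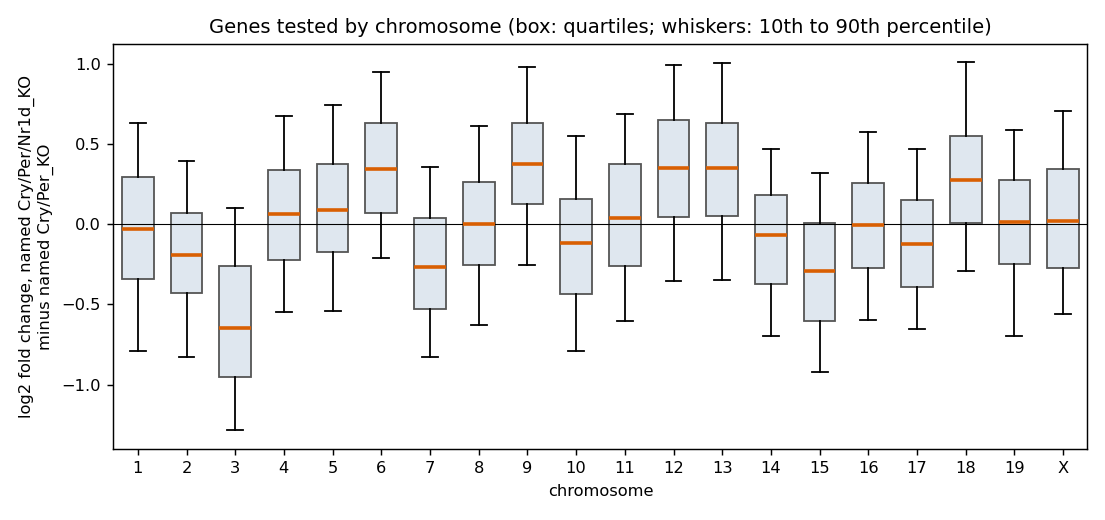
Log2 fold changes (CPN-named minus CP-named) of the genes tested, by chromosome, as boxes from the lower to the upper quartile with the median in orange and whiskers from the 10th to the 90th percentile. The box of chromosome 3 lies below 0 (median -0.65), and those of chromosomes 6, 9, 12, 13 and 18 lie above 0.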

How the data were processed

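RNA of 3 immortalized mouse fibroblast lines was poly-A enriched, and stranded libraries were sequenced as single-end reads of 50 bases. STAR (mm10) and featureCounts were used by the authors to align and assign reads, and the deposited values are raw counts of 27179 Entrez genes with no normalization. The strand setting and the treatment of multi-mapping reads are not given in the sources used here. The deposited DESeq2 tables of the authors' own comparisons were not used. Symbols came from RefSeq (25275 genes matched, 93.0%).

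The analysis used edgeR 4.0.16 under R 4.3.3 (quasi-likelihood test, TMM, prior count 2), with DESeq2 1.42.0 as an alternative. All 6 libraries entered 1 fit with 3 groups, and genes that averaged 100 normalized counts or more across them were tested (11934 genes, of 20375 with a count). A gene was called at an adjusted p under 0.05 and a log2 fold change beyond 0.807. A standard error is the fitted log2 fold change divided by the square root of F. The common biological coefficient of variation was 0.0393. A count of 0 allows up to 3 counts per library, which covers counting error only, and folds against genes at 0 were set against this floor. The script was tested on simulated data.

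The genes and lists were chosen with earlier results of these data known. The rule named the mutated genes, every member of the clock, NR1D target and corepressor lists, the 12 largest changes and the 6 largest differences in counts in each direction, up to 3 rises and 3 falls of each other list, and the fibroblast markers. Other genes given with their values in the text were added after their values were seen. Not every gene that the rule takes is printed, and several list members are not reported here. Alternatives were other size factors, DESeq2, other filters and thresholds, the 4 compared libraries alone, a replicate block, each library left out, subtracted chromosome medians, and exchanged genotypes. Shared exon bases and 50-base stretches came from GENCODE vM21.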

Additional observations from a re-analysis of the deposited data

How the results depend on the processing

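Exchanging the genotypes turned the log2 fold change of Arntl in Cry/Per/Nr1d_KO from 0.89 to -0.89, and by construction that of every other gene. Against 938 genes called higher and 1068 lower, no expression filter gave 1717 and 2091, a mean of at least 10 gave 1553 and 1758, and no limit on the fold gave 4543 and 4575. DESeq2 at an adjusted p under 1e-22 called 447 and 656, and edgeR's glmTreat test called 615 higher and 796 lower. DESeq2 at 0.05, median-of-ratios size factors, the 4 libraries alone and subtracted chromosome medians stayed within 1.5 times of both counts. Each library left out gave 925 to 962 higher and 1044 to 1101 lower. Core clock genes called lower went from 0 to 1 with a mean of at least 10 and with chromosome medians subtracted, and ranged from 0 to 1 with a library left out. Wnt genes called higher ranged from 1 to 2 with a library left out. Hox genes called, 3 higher and 14 lower in a set that the limit on level itself selects, were 5 higher and 29 lower with a mean of at least 10, and 1 higher with chromosome medians subtracted. The median of chromosome 3 was -0.63 with a mean of at least 10 and ran from -0.66 to -0.63 with a library left out. The 91 genes at 3 counts or fewer in the CPN-named libraries became 39 at exactly 0 counts and 205 with a mean of at least 30 in the other pair, where 11 genes also met the reverse criterion. Apart from these, the cause of the differences was not tested. Of 184 named genes, 148 were called. No called gene changed sign under other size factors, DESeq2, subtracted medians, the block or a library left out. Among genes not called, subtracted medians turned Ciart from -0.51 to 0.13, Wee1 from -0.24 to 0.02 and Pdgfrb from 0.01 to -0.27, and a few with values near 0, such as Clock, Tef and Ncor1, changed sign under some of these settings. Subtracted medians ended 22 calls and made 1, and leaving out a library ended a call in 18 fits and made one in 4.

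Same-numbered libraries of the pairs did not deviate together (r = -0.211 over 11934 genes), and no label ties the numbers, so they were not treated as pairs. With the replicate number as a block, 933 genes were called higher and 1069 lower, and of the named genes the block ended the call of Wnt9a (0.81). The 4 libraries held 56427876 counts or more, and genes at 0 could have up to 3 counts per library.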
